A study of Mus musculus with 8 samples.

Results

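Neurotrophins and the receptors that bind them were read by 17 of the 25697 probes of the array. These were all the probes whose gene symbol in the deposited table was Bdnf, Ntf3, Ntf5, Ntrk2, Ntrk3, Ngfr or Sort1, 7 symbols in all. The array was the Illumina MouseRef-8 v2 BeadChip, and the cells were STHdh striatal cells, conditionally immortalized neuronal progenitors from embryonic mouse striatum with wild-type huntingtin. In 4 samples the cells had been transiently transfected with the beta isoform of mouse Bcl11b, a zinc finger transcription factor of striatal medium spiny neurons, in the plasmid pcDNA3.1. In the 4 controls, here called mock, the labels name pcDNA3.1 alone and give the source as wild-type; the study's text calls them untransfected in one place and mock-transfected in others. RNA was harvested 2 days after transfection, and the comparison asked which transcripts differed between Bcl11b-transfected and mock cells. The study describes the replicates as different sets of transfected cells, while the labels do not say how the samples were separated, and the p-values measure the spread between these sets. In such bulk RNA, fewer cells expressing a gene and less RNA per cell cannot be told apart.

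Neurotrophins are secreted growth factors made as longer proforms that furin and related proteases cleave. The mature proteins activate Trk receptor tyrosine kinases, with Ntrk2 (TrkB) as the receptor of brain-derived neurotrophic factor and neurotrophin 4 and Ntrk3 (TrkC) as the receptor of neurotrophin 3. The proforms instead bind p75 (Ngfr) together with sortilin (Sort1), which also carries proneurotrophins through the Golgi to the regulated secretory pathway. Striatal neurons make little Bdnf of their own and depend on Bdnf delivered from the cortex.

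Median signals of the arrays were 31.6 to 53.9 in mock and 20.1 to 30.2 in Bcl11b cells before normalization, and 10121 to 10784 and 10342 to 10644 probes had a detection p under 0.01. The single Bcl11b probe (ILMN_2611022) had no detection p under 0.01 in either group. Whether this probe lies in the transfected cDNA was not determined, so it did not check the labels. None of the 11 probes for markers of medium spiny neurons (8 symbols, among them Ppp1r1b, Drd2 and Rgs9) was detected. By PCR the study found Ppp1r1b and Rgs9 expressed in these cells, and it reported Present calls on its chips for most of its striatal-enriched genes. At an unadjusted p under 0.05 it also lists Rgs9 as higher and Bcl11b itself as lower in Bcl11b-transfected cells. The probes of both were undetected here, so neither change could be read. A probe below the limit of 0.01 does not show that its transcript was absent. Of 8 probes for general neuronal markers 2 were detected. Stmn2 was detected on 4 mock and 4 Bcl11b arrays (mean log2 signal 10.16 and 9.90), and Nefm on 1 mock and 2 Bcl11b arrays. Progenitor and mesenchymal markers were detected by 5 of 8 and 8 of 11 probes, among them Nes, Vim, Col1a1 and Tagln.

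Bdnf was the only symbol of the 7 with a probe past the adjusted threshold below, and its gene has several promoters, each with its own first exon. RefSeq promoter windows of 300 bases (250 before and 50 from the start site on) were held for 4 of the 7 genes, with 7 for Bdnf, 2 for Ntf3 and 1 each for Ntrk2 and Ngfr. Coordinates are those of GRCm38.p6. The windows were searched on both strands for hexamers that the study derived from DNA bound by Bcl11b, which are ACCACA (in 16.8% of all 32851 RefSeq windows of this length), TGCTTG (in 16.4%), AGTGCT (in 15.4%), AGAGTG (in 16.4%), AGTGTG (in 17.1%) and GGATCA (in 9.24%). They were also searched for the cAMP response element half-site CGTCA (in 20.8% of all windows), its longer form CACGTCA (in 2.01%), which contains the half-site, and the AP-1 site TGAGTCA (in 5.2%). Bdnf windows are shown because Bdnf carried the smallest p of these genes. Of its windows, the 3 that hold AGAGTG are printed, the hexamer found in the most Bdnf windows. That choice was made after the search. Every match to these motifs is in capitals, on the strand of the gene.
Bdnf start 3, chr2:109692186-109692485 (+): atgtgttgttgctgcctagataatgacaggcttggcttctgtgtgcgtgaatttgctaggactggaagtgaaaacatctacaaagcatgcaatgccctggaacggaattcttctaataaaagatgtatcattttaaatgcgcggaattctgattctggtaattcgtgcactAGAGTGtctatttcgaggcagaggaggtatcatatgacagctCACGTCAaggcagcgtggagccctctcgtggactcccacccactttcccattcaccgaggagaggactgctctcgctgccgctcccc
Bdnf start 4, chr2:109692777-109693076 (+): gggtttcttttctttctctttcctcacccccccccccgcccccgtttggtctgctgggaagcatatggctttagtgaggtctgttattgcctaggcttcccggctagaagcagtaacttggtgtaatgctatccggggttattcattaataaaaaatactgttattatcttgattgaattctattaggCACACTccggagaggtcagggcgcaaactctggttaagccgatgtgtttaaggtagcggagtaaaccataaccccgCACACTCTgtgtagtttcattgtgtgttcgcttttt
Bdnf start 5, chr2:109694159-109694458 (+): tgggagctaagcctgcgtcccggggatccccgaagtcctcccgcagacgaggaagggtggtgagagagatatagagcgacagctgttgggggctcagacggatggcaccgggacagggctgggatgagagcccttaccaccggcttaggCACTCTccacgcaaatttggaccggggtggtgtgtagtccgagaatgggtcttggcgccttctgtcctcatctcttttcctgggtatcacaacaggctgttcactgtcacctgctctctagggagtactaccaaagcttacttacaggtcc
In the window of start 3, AGAGTG begins at position -79 and CACGTCA, the form of the cAMP response element bound by Creb in activity-dependent Bdnf transcription, at position -37 from the start site. In the window of start 4 both matches to AGAGTG and AGTGTG near position 15 lie on the opposite strand and overlap (CACACTCT), and a further AGTGTG stands at position -62. In the window of start 5 AGAGTG is also on the opposite strand, at position -101. AGAGTG was thus in 3 of the 7 Bdnf windows, AGTGTG in 1, CACGTCA in 1 and TGCTTG in 1 (that of start 6), and no Bdnf window held any of the other motifs beside the CGTCA within CACGTCA. Each hexamer stood in 9.24% to 17.1% of all windows, so a window holding 1 or more of them is common, and no test was made of these counts. A match is a stretch of letters and not a shown binding site, and which Bdnf transcripts each array probe reads was not determined here.

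**Figure D1:**
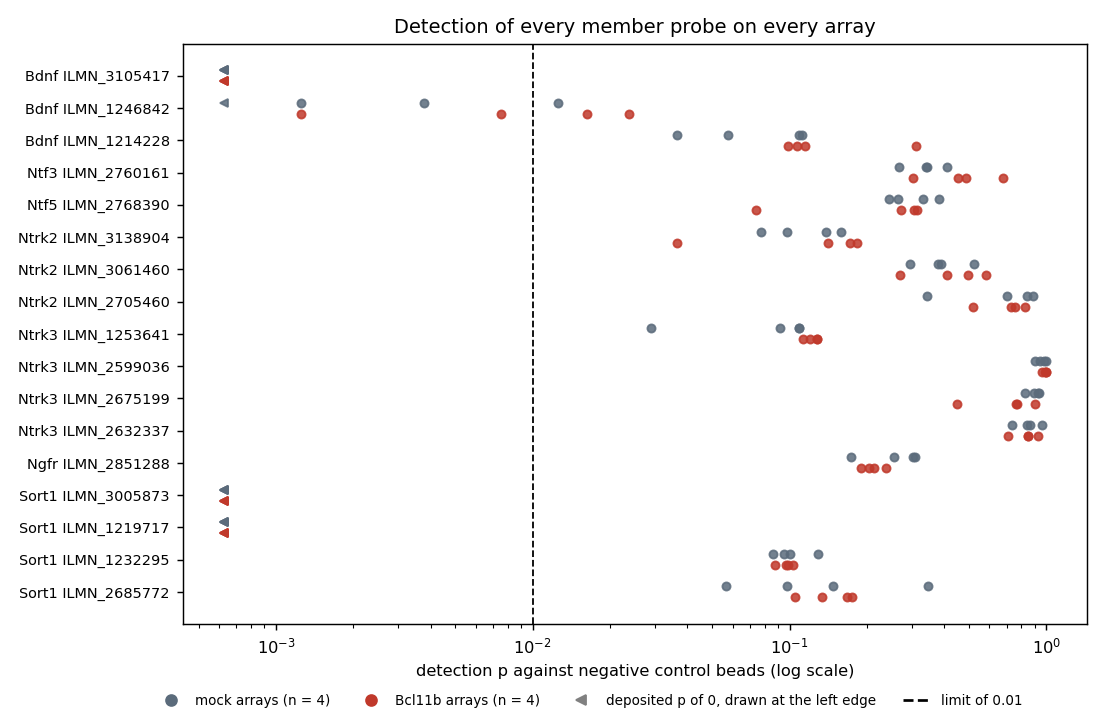
Detection p of each of the 17 probes on each of the 8 arrays (horizontal axis, log scale; a p of 0 is drawn as a triangle at the left edge, where points of 1 group coincide), with the limit of 0.01 dashed. Of the 7 probes of Bdnf and Sort1, 4 have points left of the line, and every probe of Ntf3, Ntf5, Ntrk2, Ntrk3 and Ngfr lies right of it on every array.

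Transcripts of 2 of the 7 symbols were detected, Bdnf and Sort1, and those of the other 5 were not. A probe counted as detected where the scanner software gave it a detection p under 0.01 against negative control beads. By this limit 4 of the 17 probes were detected on at least 1 array and 3 on all 8 arrays. The striatal cells thus gave a signal for a ligand and for the sorting receptor. They gave none above this limit for Ntrk2, Ntrk3 or Ngfr, whose 8 probes stayed undetected on every array of both groups (see the plot of detection p).

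Among the receptors, the nearest to detection was an Ntrk3 probe (ILMN_1253641), which had a detection p of 0.0288 on mock array 3 at a deposited signal of 70.1. The dimmest detected probe of the mock arrays had a signal between 69.7 and 138.6, and that of the Bcl11b arrays between 49.9 and 71.7. The other 3 Ntrk3 probes (ILMN_2599036, ILMN_2675199 and ILMN_2632337) had signals below 0 on all 8 arrays. The highest signals of the 3 Ntrk2 probes were 46.1 (ILMN_3138904, detection p at least 0.0363), 4.82 (ILMN_3061460) and 1.01 (ILMN_2705460), and the Ngfr probe (ILMN_2851288), which reads the p75 receptor, ran from 6.12 to 13.0. Neurotrophin 3 (Ntf3, ILMN_2760161) reached at most 15.5, with no detection p under 0.267. Neurotrophin 4 (Ntf5, ILMN_2768390) reached at most 27.9, with no detection p under 0.0739. No fold change is given for these probes, since neither group had a measured level.

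**Figure D2:**
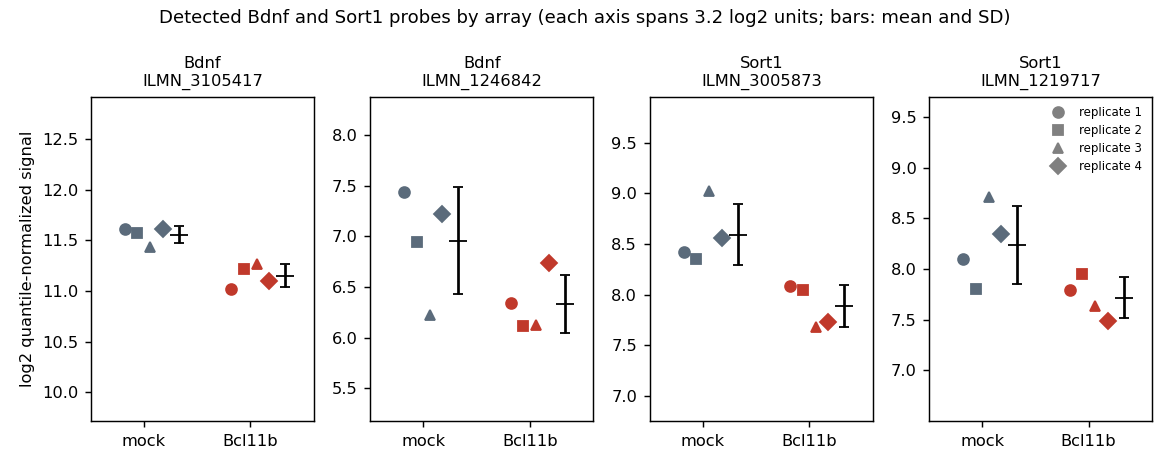
Log2 quantile-normalized signal (vertical axes, each spanning 3.2 units) of the 4 detected probes on 4 mock and 4 Bcl11b arrays, with a symbol for each replicate number and the mean and SD beside each group. The groups stand apart for Bdnf ILMN_3105417 and Sort1 ILMN_3005873, and overlap for the other 2 probes.

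Of the detected transcripts, Bdnf and Sort1 were lower in Bcl11b cells, with p under 0.05 for 1 of 2 and 2 of 2 detected probes. In the limma fit over all probes, 1 of the 17 passed an adjusted p of 0.10 (Benjamini-Hochberg), a threshold passed by 0.981% of all probes. An unadjusted p under 0.05 with a log2 difference of at least 0.32, the second threshold of the study, was met by 3 of the 17, against 9.02% of all probes. Those 3 were among the 4 detected probes, where the share over all 11755 detected probes was 14.8%. All 3 were lower (10.5% of all detected probes) and 0 were higher (4.32%). Groups that did not overlap were found for 2 of the 4, against 10.1% of all detected probes. These counts are small, and no test was made of the list.

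Bdnf, the ligand of TrkB, had the brightest probe of the set (ILMN_3105417). Its deposited signals were 4705, 2511, 3456 and 3900 on mock arrays 1 to 4 and 1794, 1838, 1466 and 1894 on Bcl11b arrays 1 to 4. After quantile normalization its log2 signals were 11.61, 11.57, 11.43 and 11.61 in mock and 11.02, 11.22, 11.27 and 11.10 in Bcl11b cells. The groups did not overlap, and 0.16 separated the nearest arrays. The mean was 11.56 ± 0.085 (SD, n = 4) in mock and 11.15 ± 0.11 (SD, n = 4) in Bcl11b cells, a difference of -0.40 (SE 0.068) or 1.32-fold lower, with adjusted p = 0.0911.

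The size of this Bdnf difference depended on how the arrays were scaled, and Bcl11b arrays were dimmer than mock arrays before normalization. Without normalization between arrays it was -1.03, where the median over all probes was -0.49, and with division by the array median it was -0.28, under the threshold of 0.32 (adjusted p = 0.183). With each array divided by its brightest Hprt probe, an alternative added after seeing the data, it was -0.69, where the median over all probes was -0.18. On each array 30.6% to 31.6% of the signals were at or below 0 and so lay under the floor of 1. Both medians include these probes and do not give the whole difference in scale between the groups. When each of the 8 arrays was left out in turn, the adjusted p was above 0.10 every time, from 0.113 to 0.264. Bdnf was lower in all 18 alternatives, with an unadjusted p under 0.05 in each. The study itself reports Bdnf as changed on these arrays, and lists it among the genes it checked by real-time PCR normalized to Hprt.

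A second Bdnf probe (ILMN_1246842) was dim and was detected on 3 mock and 2 Bcl11b arrays. Its log2 signals were 7.44, 6.94, 6.22 and 7.22 in mock and 6.34, 6.12, 6.13 and 6.73 in Bcl11b cells. The groups overlapped, mainly through mock array 3, and the difference of -0.63 (SE 0.29) had adjusted p = 0.549. It was below 0 in all 18 alternatives, from -1.36 to -0.47, with an unadjusted p under 0.05 in 8 of them and no adjusted p under 0.10. One of the 8 was the fit without mock array 3, at -0.87 (adjusted p = 0.275). The third Bdnf probe (ILMN_1214228) was undetected throughout, with deposited signals from 2.77 to 61.7.

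Sort1, sortilin, was read by 2 detected probes and 2 that were not detected, ILMN_1232295 (deposited signals 17.5 to 62.1) and ILMN_2685772 (6.19 to 51.0). The brighter one (ILMN_3005873) gave log2 signals of 8.42, 8.36, 9.02 and 8.56 in mock and 8.08, 8.04, 7.69 and 7.73 in Bcl11b cells. The groups did not overlap (0.27 between the nearest arrays), and mock array 3 was the highest. The means of 8.59 ± 0.30 and 7.89 ± 0.21 (SD, n = 4 each) differed by -0.70 (SE 0.18), 1.63-fold lower, with adjusted p = 0.225. Its unadjusted p was under 0.05 here and in all 18 alternatives, with differences from -1.43 to -0.56, though no adjusted p among them fell under 0.10.

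The second detected Sort1 probe (ILMN_1219717) read 8.10, 7.80, 8.71 and 8.34 in mock and 7.79, 7.96, 7.63 and 7.49 in Bcl11b cells. Only Bcl11b array 2 overlapped with the mock arrays, above mock array 2. The difference of -0.52 (SE 0.21), 1.43-fold lower, had adjusted p = 0.469 and an unadjusted p under 0.05, which it lost in 9 of 18 alternatives while staying below 0. Both Sort1 probes deviated from their group means together over the 8 arrays (Pearson r = 0.91). For the pair of Bdnf probes r was 0.28, and -0.38 with arrays divided by their median signal. Probes of 1 gene share the RNA and the array, so these are descriptions of the 8 arrays and carry no test.

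**Figure D3:**
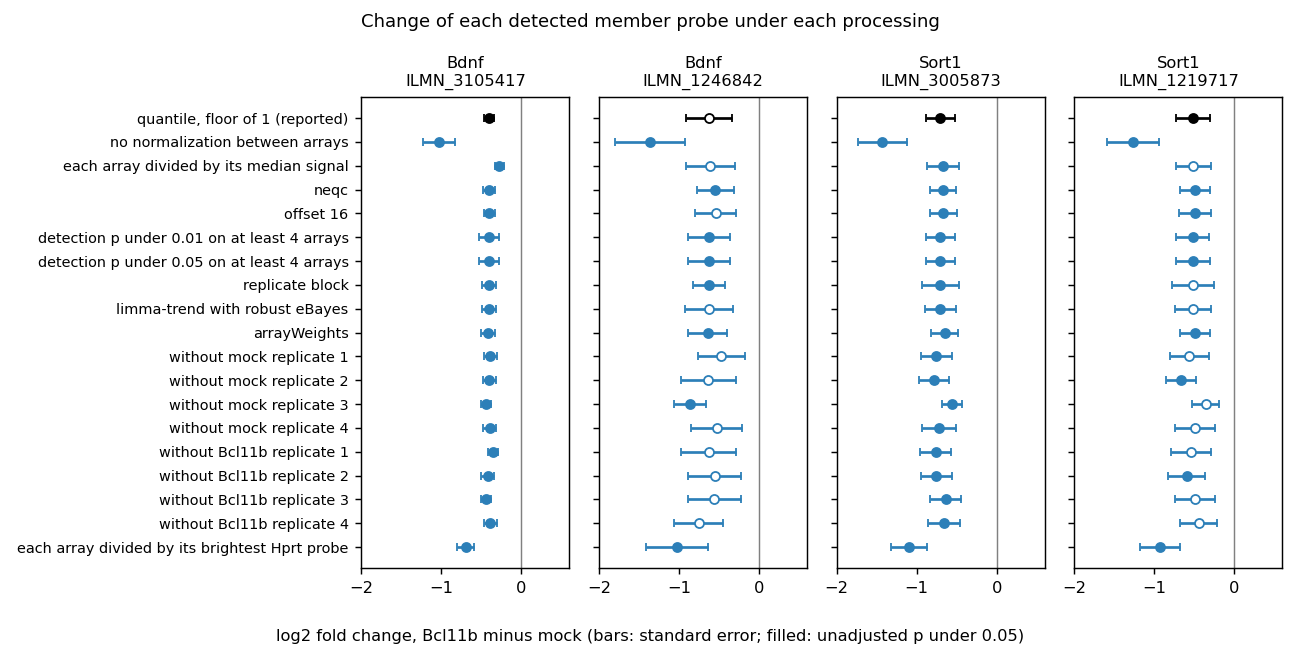
Log2 fold change (Bcl11b minus mock, horizontal axes) of the 4 detected probes under the reported processing, in black, and 18 alternatives, in blue, with standard errors and filled symbols where the unadjusted p was under 0.05. All values lie below 0, and those without normalization are shifted downward for every probe.

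The bright Bdnf probe and the Sort1 probes were then compared within each array, by a two-sided exact permutation test over the 70 assignments of arrays to groups. For Bdnf ILMN_3105417 minus Sort1 ILMN_3005873, the log2 difference was 3.19, 3.21, 2.41 and 3.05 on the mock arrays and 2.94, 3.17, 3.58 and 3.37 on the Bcl11b arrays. The groups overlapped, with mock array 3 the lowest of the 8. The mean was 2.97 ± 0.38 in mock and 3.26 ± 0.27 in Bcl11b cells (SD, n = 4 each), so that the probes differed in change by 0.30 (exact p = 0.286, and 0.857 adjusted over all 6 pairs of the 4 detected probes).

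Bdnf ILMN_3105417 and the second Sort1 probe differed in change by 0.12 (exact p = 0.714), and both Sort1 probes differed from each other by -0.18 (exact p = 0.114). Quantile normalization is not a single factor for each array and moves such differences. With arrays divided by their median both values for Bdnf and Sort1 became 0.40 and 0.23 (exact p = 0.114 and 0.371). The 3 pairs with Bdnf ILMN_1246842 are not read here, since that probe was not above background on 3 arrays. A p above 0.05 with 4 arrays against 4 does not show that 2 transcripts changed by the same amount.

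**Figure D4:**
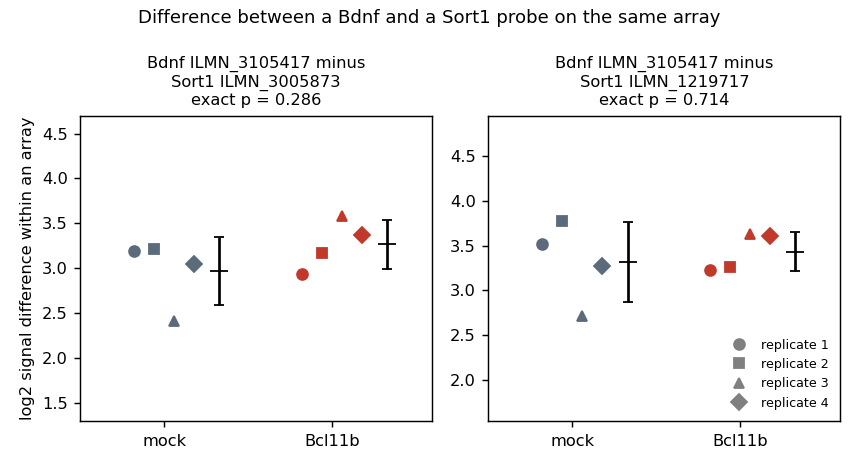
Log2 signal difference within an array (vertical axes) between the bright Bdnf probe and each detected Sort1 probe on 4 mock and 4 Bcl11b arrays, with a symbol for each replicate number and the mean and SD beside each group. The groups overlap in both panels (exact p = 0.286 and 0.714).

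The array-to-array pattern of each transcript was set beside the 9359 other probes detected on all 8 arrays, by the Pearson correlation of deviations from the group means. Nearest to Bdnf ILMN_3105417 were Vdr (r = 0.90), D15Wsu169e (0.90) and Gyg1 (0.88). Nearest to Sort1 ILMN_3005873 were Wtip (0.98), Enpp5 (0.97) and Disp1 (0.96). These are the highest of many correlations over 8 arrays that share their scaling, and of the other genes named Disp1 had a difference between groups of -0.40, Wtip of -0.26, and D15Wsu169e of 0.37.

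The surrounding pathway genes were taken from 6 lists, of which 93 symbols and 164 probes were on the array and 84 probes were detected. Among the detected probes 10 were lower and 1 higher at p under 0.05 with a log2 difference of at least 0.32, 13.1% of the 84, close to the 14.8% of all detected probes. The median log2 difference was -0.07 over these 84 and -0.02 over all detected probes, and with arrays divided by their median signal these became 0.00407 and 0.0675. The study itself names Gab1, Plcg2, Pik3r1, Shc1, Ptpn11, Sos1 and Rapgef1 among changed genes on these arrays, so their place in a list is no independent evidence.

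Of the genes that process and sort proneurotrophins, most of those detected gave no call. Furin, the main proneurotrophin convertase, had a bright probe (ILMN_3148489) at 12.49 ± 0.19 in mock and 12.43 ± 0.15 in Bcl11b cells (SD, n = 4 each; adjusted p = 1). A dimmer Furin probe (ILMN_1252364) differed by 0.72 (SE 0.40, adjusted p = 0.663). Mmp3, a matrix metalloproteinase that can cleave proneurotrophins, was the 1 of 7 detected processing probes with a call, -0.64 (adjusted p = 0.373) by ILMN_2899041, while its 2 other probes gave -0.29 and -0.10 with p above 0.05.

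In the sortilin family and its sorting partners, 2 of 13 detected probes were called lower, against 10.5% of all detected probes. These were Snx1 (ILMN_2605465), a sorting nexin of the retromer route, at -0.67 (adjusted p = 0.366), and Ap1m1 (ILMN_2984647), a subunit of the clathrin adaptor AP-1, at -0.35 (adjusted p = 0.282), whose unadjusted p rose above 0.05 with arrays divided by their median. Vps35, the retromer core, differed by 0.12 (adjusted p = 1) and Sorcs2, a receptor related to sortilin, by 0.34 (adjusted p = 0.789). Huntingtin itself (Hdh, ILMN_2672091) differed by 0.13 (adjusted p = 0.898).

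Adaptors that carry Trk signals were detected by 20 of 40 probes, although Ntrk2 and Ntrk3 were not. Gab1, a docking protein that recruits PI3 kinase, fell from 9.94 ± 0.15 to 9.41 ± 0.076 (SD, n = 4 each). The difference was -0.53 (SE 0.080), with adjusted p = 0.0701. With arrays divided by their median it was -0.47, with an unadjusted p of 0.00695 in limma. In that fit Bdnf ILMN_3105417 had a smaller unadjusted p (0.00247) and an adjusted p of 0.183. Gab1 therefore did not pass the adjusted threshold with that scaling. Under the reported processing Plcg2, a phospholipase C, was at -0.44 (adjusted p = 0.174). Pik3r1, the regulatory subunit of PI3 kinase, was at -0.53 (ILMN_3114641, adjusted p = 0.379). Another detected Pik3r1 probe (ILMN_2473531) gave -0.33 (adjusted p = 0.671) and was not called, since its unadjusted p was above 0.05. Ptpn11, the phosphatase Shp2, was called higher by its probe ILMN_1245874, at 0.33 (adjusted p = 0.373). Its brightest probe (ILMN_3001598) gave -0.15 (adjusted p = 0.431), and its other detected probe (ILMN_2743723) gave 0.19 (adjusted p = 0.53). The direction of the brightest probe depended on the scaling, since with arrays divided by their median all 3 probes were above 0 (0.38, 0.16 and 0.24, with unadjusted p under 0.05 for ILMN_1245874 and ILMN_2743723). Of the partners of p75, 1 of 15 detected probes was called, Traf6 (ILMN_2427560), a ubiquitin ligase, at -0.48 (adjusted p = 0.384), detected on 4 mock and 3 Bcl11b arrays. Its other 2 probes differed by 0.02 and -0.05, with p above 0.8.

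Outside the neurotrophin family, artemin (Artn), a ligand of the GDNF family, was lower. Its probe ILMN_2941280 read 10.02 ± 0.31 in mock and 8.84 ± 0.041 in Bcl11b cells (SD, n = 4 each), a difference of -1.18 (SE 0.15), 2.26-fold lower, with adjusted p = 0.0465 in limma. A second probe (ILMN_1254114) gave -1.09 (SE 0.16) with adjusted p = 0.0599, and the groups stood apart for both. Gdnf itself differed by -0.12 (adjusted p = 0.802). The signalling receptor Ret was not detected by either of its probes, and Gfra1, a co-receptor, was detected on 1 mock array. Among regulators of Bdnf transcription 1 of 22 detected probes was called, Bhlhb2 (ILMN_1249378), a basic helix-loop-helix repressor, at -0.39 (adjusted p = 0.399), whose unadjusted p rose above 0.05 with arrays divided by their median. The smallest p of this list belonged to Hdac1 (ILMN_2733514), a histone deacetylase, which was higher by 0.27 (adjusted p = 0.215) with groups that did not overlap, short of 0.32. With arrays divided by their median it was at 0.32, past that threshold.

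**Figure D5:**
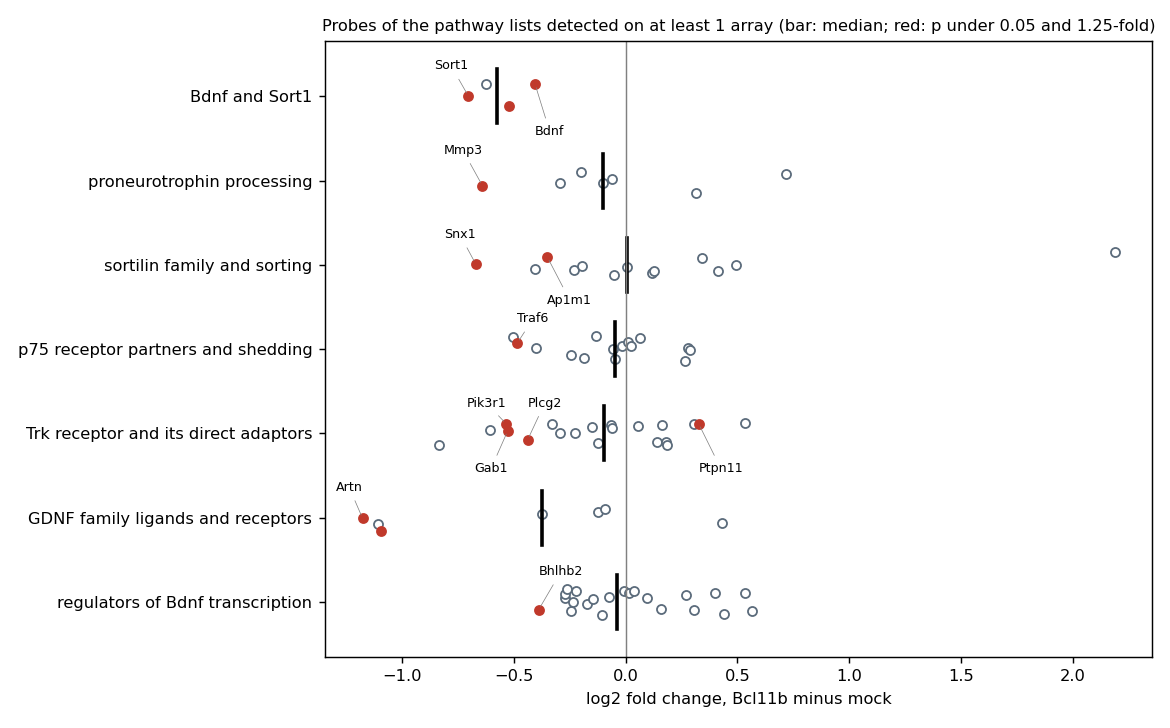
Log2 fold change (Bcl11b minus mock, horizontal axis) of the detected probes of Bdnf and Sort1 and of the 6 pathway lists, with the median of each row as a bar and probes at p under 0.05 with a log2 difference of at least 0.32 in red. The 3 Artn probes, 2 of them called and 1 detected on a single array, lie farthest to the left. The medians of the 6 lists lie between -0.37 and 0.00417. The lowest, that of the GDNF family list, is the value of a Gfra1 probe detected on 1 mock array only. The open point far to the right is a Gga1 probe detected on 3 of 8 arrays.

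Markers of other cell types moved in part with the groups. No oligodendrocyte probe (of 8) or endothelial probe (of 6) was detected, and the single detected astrocyte probe (Slc1a3, on 3 mock and 1 Bcl11b arrays) had p above 0.05. The single detected microglia probe (Cd68) was above background on 2 Bcl11b arrays and on 0 mock arrays. Its log2 signals were 4.52 to 5.50 in mock and 5.97 to 6.91 in Bcl11b cells, higher without overlap and with unadjusted p under 0.05 (adjusted p = 0.186), and no fold is given because the mock arrays had no measured level. Summed normalized signals of the detected mesenchymal probes were 26150 to 32810 in mock and 31540 to 37150 in Bcl11b cells, and those of the progenitor probes 23640 to 27620 and 19920 to 27650. Most of the mesenchymal sum came from the Acta2 probes (mean log2 signal 12.69, 12.95 and 13.55 in mock) and most of the progenitor sum from Vim (14.48 in mock). The sums thus follow 1 gene each. Of 8 detected mesenchymal probes Pdgfra was lower (-0.70, adjusted p = 0.00296) and Pdgfrb lower (-0.49, adjusted p = 0.309), while the median of the 8 was 0.09. Tagln (0.48), Col1a1 (0.22), Col3a1 (-0.87) and the 3 Acta2 probes (0.28, 0.34 and -0.04) had p above 0.05, but with arrays divided by their median all 3 Acta2 probes were higher (0.57, 0.68 and 0.41, unadjusted p under 0.05). Of 5 progenitor probes 1 for Nes was higher (0.43, adjusted p = 0.304) and 1 for Sox2 lower (-0.71, adjusted p = 0.438). The second Nes and Sox2 probes differed by -0.00071 and 0.20 with p above 0.6. Vim, the last of the progenitor probes, changed sign with the scaling (-0.24 with p above 0.05, and 0.54 with arrays divided by their median, unadjusted p under 0.05). The part of cell composition in the Bdnf and Sort1 differences was not tested.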

How the data were processed

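The authors deposited for each probe an intensity, the average bead signal with background subtracted by GenomeStudio and not normalized between arrays, and a detection p-value against negative control beads. After quantile normalization, signals under 1 were raised to 1, taken as log2 and fitted with limma (3.58.1, R 4.3.3; lmFit and eBayes, no covariate) over all 25697 probes, with Benjamini-Hochberg adjustment. Thresholds were an adjusted p of 0.10, and p under 0.05 with 1.25-fold. Normalization and fit were tested on simulated data. Groups and replicate numbers came from the sample titles, and no signals were identical between any 2 arrays. The number of arrays limits the precision. Without depth, a signal not well above background has no fold. Pairs were compared with an exact permutation test. Named were every member probe, called detected probes of the lists (at most 4 per list), Bcl11b, and the 3 probes most like each gene's brightest; other genes were named after their values were seen. One member gene is not reported here. Members and lists were chosen with earlier results of these data known. Motifs were searched in RefSeq windows. Alternatives changed the normalization, offset, filter on dim probes, variance model, array weights, replicate block and arrays included.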

Additional observations from a re-analysis of the deposited data

How the results depend on the processing

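No detected member probe changed direction under any of the 18 alternatives. The count of member probes at adjusted p under 0.10, which was 1 (Bdnf ILMN_3105417), became 0 in limma without normalization, with division by the array median, with either detection filter, with the replicate block and with limma-trend, and it was 0 to 0 when each array was left out in turn; its unadjusted p stayed under 0.05 throughout. The causes were not tested. A fit without 1 array has fewer samples, and a filtered fit has fewer probes. With the filter at detection p under 0.01 the Bdnf difference stayed at -0.40. Its SE was 0.12 there against 0.068 in the report, and its unadjusted p in limma 0.0094 against 0.0008. The count at p under 0.05 with a log2 difference of at least 0.32, 3 in the report, was 6 without normalization, 6 with division by Hprt (both including undetected probes), 1 with division by the array median, and 2 to 4 under the other alternatives and when 1 array was left out. Over all 164 probes of the pathway lists, undetected ones included, the count was 15. It was 14 with division by the array median, 13 with an offset of 16 and 12 with the replicate block. It was 7 to 25 when 1 array was left out, with 25 without mock replicate 2, 9 without mock replicate 3 and 7 without mock replicate 4. This count was not taken under the remaining alternatives, among them no normalization and division by Hprt. The exact tests of pairs called 0 under each alternative run.

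Deviations of same-numbered arrays from their group means correlated at 0.677, -0.630, 0.182 and 0.695 for replicates 1 to 4 over 9360 probes, and not every array correlated best with its own number, so the numbers were not taken as a pairing. With the replicate block 0 member probes passed the adjusted threshold and 3 passed the other one. Signals near background limit what the 13 undetected probes can show.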
